A study of Mus musculus with 3 samples.

Results

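Nts, Cort, Pmch, Stmn2, Stmn4 and Adgrl3 are genes best known from nerve and endocrine cells, and all 6 were measured in cells sorted from mouse molars. They are 6 of the 21446 genes that the 3 libraries share by identifier, and they were picked from earlier results on the same cells, so their levels are given as a description without a test. The cells came from Pthrp-mCherry knock-in mice, which carry the mCherry reporter at the gene of parathyroid hormone-related protein (Pthlh), on a mostly C57BL/6 background and of both sexes. First and second mandibular molars were pooled and dissociated, mCherry+ cells were sorted, and each of 3 ages (postnatal day 15, P15; postnatal day 25, P25; and 8 weeks) gave a single 10x Chromium 3' library. The study used these ages to follow cementoblasts, the cells that lay down root cementum, and their precursors through root formation. With 1 library per age there was no replicate of an age, and every interval below covers counting error only.

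Nts encodes the precursor of neurotensin, Cort that of cortistatin and Pmch that of melanin-concentrating hormone, which are short signalling peptides cut from larger secreted proteins. Stmn2 and Stmn4 encode stathmins, proteins that bind tubulin and regulate microtubule turnover in growing nerve processes. Adgrl3 encodes latrophilin 3, an adhesion receptor at the cell surface that binds FLRT proteins and teneurins on neighbouring cells. Secreted precursors become active peptides through convertases such as Pcsk1, Pcsk2 and Furin, carboxypeptidase E (Cpe) and, for some peptides only, the amidating enzyme Pam.

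Cells numbered 12926 in the P15 library, 8971 in the P25 library and 5192 in the 8-week library, with medians of 14254, 15834 and 8713 unique molecular identifiers (UMIs, counted mRNA molecules) per cell. From 13 to 26 cell barcodes were shared between any pair of libraries. Cells with 0 UMIs of Ptprc, a marker of blood cells, and 0 of Epcam, a marker of epithelium, were taken as mesenchymal and numbered 10667, 7879 and 5061. Gates were set inside them on at least 2 UMIs of Hand2, a transcription factor of the distal jaw (282, 1158 and 830 cells), 10 of Ibsp, bone sialoprotein of mineralizing matrix (1913, 2587 and 1589), 3 of Ifitm5, a membrane protein of bone-forming cells (633, 813 and 273), 10 of Ogn, a small matrix proteoglycan (2485, 2103 and 1094), and 5 of Rgs5, a marker of vessel-associated mural cells (277, 55 and 55). The gates overlapped: of Hand2-gated cells, 19.5% at P15 but 77.3% at P25 and 81.6% at 8 weeks were also Ibsp-gated. Pthlh itself, the reporter's gene, was at 158, 214 and 233 UMIs per 1000000 UMIs (counts per 1000000, CPM) in the mesenchymal cells. The set was not free of blood and epithelial transcripts. In cells of no gate, 3 erythroid markers summed to 10018, 9194 and 1754 CPM and 7 epithelial markers to 1249, 1516 and 430 CPM. Those cells, 56.0%, 40.7% and 47.1% of the set, stayed in the levels outside each gate and in the comparisons with carriers. The 8 mural markers summed to 7566 CPM in the Rgs5 gate at P15 but to 952 and 905 CPM at P25 and 8 weeks, and Myh11, a defining marker of contractile mural cells, was at 72.2, 2.35 and 0 CPM, so the cells of that gate were called by its gene only.

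Promoter sequence is shown for Nts and Pmch because both hold the same short motif. RefSeq promoters of 300 bases on GRCm38.p6 were matched for 4 of the 6 genes, with Stmn2 and Stmn4 not matched. The AP-1-type motif TGANTCA (either strand, capitals below) occurred in those of Nts and Pmch and in none of Cort or the 3 starts of Adgrl3, and 7.81% of all 32851 promoters held it. The windows are chr10:102490607-102490636 on the minus strand for Nts, with the motif beginning 207 bases before the start of transcription, and chr10:88090973-88091002 on the plus strand for Pmch, with the motif beginning 88 bases before it. A match of letters is a description and no evidence of binding.
Nts promoter window: aactctttctgTGAGTCAgaaatcctgagc
Pmch promoter window: gctctacggggTGAGTCAtttctaaactga

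Nts (chr10:102481756-102490486, minus strand, GRCm38) was highest in Hand2-gated cells at every age, although these cells made up 28.9%, 60.5% and 58.4% of the cells with at least 2 Nts UMIs. Ibsp-gated cells made up 9.71%, 70.9% and 75.5% of those carriers, and these gates overlap. Ogn-gated cells made up 49.3%, 26.0% and 17.7% of the carriers and held Nts at 130, 270 and 314 CPM. Their log2 ratios to other mesenchymal cells were 1.60, 0.07 and -0.32. Cells that passed the Ogn gate and no other held less Nts, at 55.8, 56.2 and 98.7 CPM. In Hand2-gated cells Nts stood at 1088 CPM in the P15 library (95% Poisson interval 1061 to 1115), 1211 CPM in the P25 library (1196 to 1226) and 1121 CPM in the 8-week library (1099 to 1142). Outside the gate it was at 30.3, 86.7 and 170 CPM, so the log2 ratio of gated to other mesenchymal cells was lower in each later library, at 5.12, 3.79 and 2.72, with a mean of 3.87 ± 1.20 (SD, n = 3 libraries).
The level inside the Hand2 gate was thus close to flat while the level outside it differed several-fold between the libraries. After every cell was thinned to 3000 UMIs, Nts was detected in 82.1% of P15 Hand2-gated cells (Clopper-Pearson 95% interval 77.1 to 86.4), 91.1% at P25 (89.3 to 92.7) and 88.2% at 8 weeks (85.8 to 90.3); without thinning the shares were 94.3%, 98.6% and 97.2%. Ptprc-positive cells, which should lack Nts, showed it in 1.72%, 3.96% and 3.85% of thinned cells. Their median depths were 11276, 15273 and 9732 UMIs against 18366, 14513 and 10390 in the Hand2 gate. The Nts level of Ptprc-positive cells was 25.9, 46.4 and 3.26 CPM, the last from 1 UMI. At P15 that was near the 30.3 CPM of mesenchymal cells outside the Hand2 gate.

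The Ibsp gate behaved differently for Nts. Its Nts level of 41.7 CPM at P15 was below the 78.8 CPM of other mesenchymal cells, but the later levels of 478 and 710 CPM were above 131 and 164 CPM. In cells that passed the Ibsp gate and no other, which can still hold 1 Hand2 UMI, Nts stood at 9.41 CPM (187 UMIs in 1281 cells) in the first library and at 375 and 641 CPM in the later ones. Cells that passed both Ibsp and Ifitm5 and no other gate stayed low at 3.68, 12.8 and 7.56 CPM. Ifitm5-gated cells as a whole had the lowest Nts of the 5 gates in each library, at 8.02, 26.0 and 12.8 CPM. In mesenchymal cells as a whole Nts was at 70.7, 262 and 369 CPM, and the share of Hand2-gated cells in them was 2.64%, 14.7% and 16.4%; in these single libraries a change in cell make-up and a change per cell cannot be told apart for the whole.

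**Figure D1:**
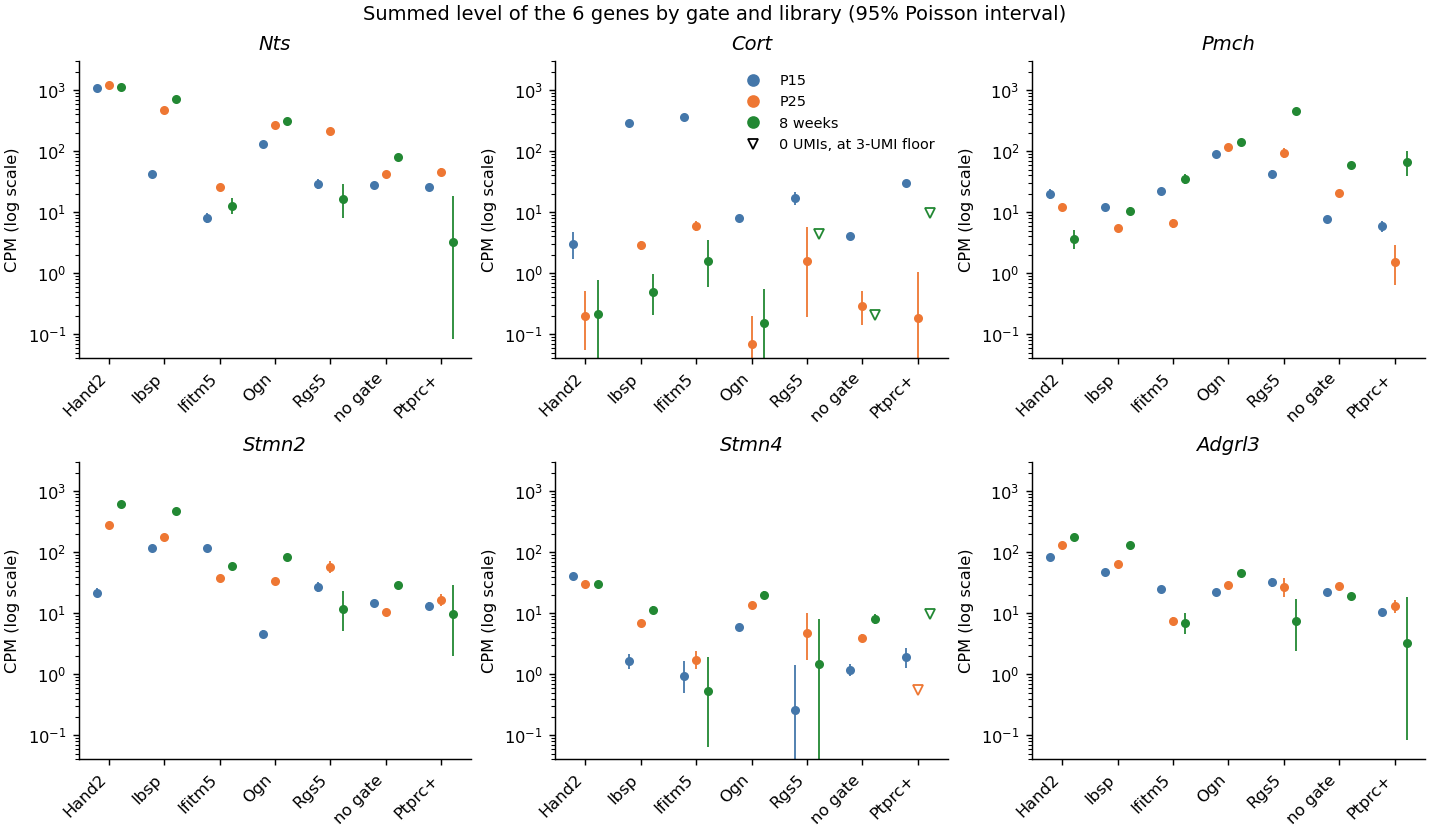
Level of each gene (CPM, log scale) in mesenchymal cells of the 5 gates, in mesenchymal cells of no gate and in Ptprc-positive cells, with a point per library and its 95% Poisson interval; open triangles mark 0 UMIs, drawn at the level 3 UMIs would give. Nts lies at 1088 CPM or higher in the Hand2 gate in every library, Cort lies above 200 CPM only in the Ibsp and Ifitm5 gates at P15, and Pmch is higher in the Ogn and Rgs5 gates than in the other 3.

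Cort (chr4:149125034-149126763, minus strand) was a P15 gene in these libraries. Mesenchymal cells held 9865 Cort UMIs at P15 (65.5 CPM, 64.2 to 66.8), 166 at P25 (1.29 CPM, 1.10 to 1.504) and 9 at 8 weeks (0.205 CPM, 0.0936 to 0.389). At P15 it sat in the Ifitm5 gate at 362 CPM (352 to 373) and in the Ibsp gate at 285 CPM (280 to 291), against 7.91 CPM in the Ogn gate, 2.96 CPM in the Hand2 gate and 4.09 CPM in cells of no gate.
The later levels in the Ifitm5 gate were far lower, at 5.92 CPM at P25 and 1.60 CPM at 8 weeks. The mean log2 ratio of that gate to other mesenchymal cells was 2.28 ± 0.97 (SD, n = 3 libraries), from 3.21, 2.35 and 1.28. For the Ibsp gate the log2 ratios were 5.85, 1.54 and 0.52, with a mean of 2.63 ± 2.83. Cort outside the Ifitm5 gate was at 38.2, 0.356 and 0.0746 CPM, and outside the Ibsp gate at 3.97, 0.337 and 0.0364 CPM. The ratios used CPM plus 1, which pulls them toward 0 where levels are near or under 1 CPM. Their fall with age is therefore not read as a weaker preference for either gate. In the Hand2 gate the P25 and 8-week levels rested on 4 and 2 UMIs and had overlapping intervals. Ptprc-positive cells of the P15 library held 29.9 CPM, above the Ogn, Hand2 and ungated mesenchymal cells, so a level of that size in that library was not read as expression.

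Cort was highest at P15 in cells of both the Ibsp and Ifitm5 gates. Cells that passed these gates and no other had 555 CPM, Ibsp alone 235 CPM and Ifitm5 alone 28.2 CPM. The level of Ifitm5 alone was near the 29.9 CPM of Ptprc-positive cells, which was not read as expression. Of the 553 P15 carriers, meaning cells with at least 2 UMIs of the gene, 90.6% were Ibsp-gated and 249 were Ifitm5-gated, where these gates held 17.9% and 5.93% of mesenchymal cells. Thinned to 3000 UMIs, 31.7% of Ifitm5-gated cells had a Cort UMI at P15 (28.1 to 35.5) and 1.74% at P25 (0.953 to 2.90), and 0 of 268 at 8 weeks. That 0 allows a share of up to 1.12% by a floor of 3 cells (Clopper-Pearson upper bound 1.37%), a limit on cells with a UMI at 3000 UMIs and not on cells that express the gene. The corresponding share of Ptprc-positive cells was 2.39% at P15, the gate's median depths were 17658, 22935 and 12429 UMIs, and unthinned shares in the gate were 52.3%, 6.15% and 1.47%. The related precursor gene Sst, which encodes somatostatin, was at 2.66, 0.405 and 0 CPM in mesenchymal cells.

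Pmch (chr10:88091072-88092375, plus strand, overlapping Parpbp on the other strand) came from few cells, most of them Ogn-gated. In the Ogn gate it stood at 88.9 CPM (86.3 to 91.6) in the P15 library, 118 CPM (115 to 122) in the P25 library and 141 CPM (135 to 148) in the 8-week library, against 5.57, 10.2 and 29.4 CPM in other mesenchymal cells, a mean log2 ratio of 3.14 ± 0.81 (SD, n = 3 libraries). In the Ibsp gate it was at 11.99, 5.51 and 10.5 CPM.
The Ogn gate was therefore above the Ibsp gate in each library. The Rgs5 gate had a higher mean, at 42.5, 93.0 and 460 CPM, but it held 55 cells at P25 and 55 at 8 weeks, and 1 cell gave 40.6% of its Pmch UMIs at 8 weeks, without which the level was 278 CPM. Within that gate, cells that were Rgs5-gated alone had 1 Pmch UMI in 181 cells at P15 (0.499 CPM). Those also Ogn-gated and in no other gate had 161, 133 and 471 CPM. The mean log2 ratio of the Rgs5 gate was 1.45 ± 1.37 and turned to -4.55 when cells of several gates were left out, to -1.01 when all thresholds were doubled and to -0.48 in a stricter mesenchymal set, also at 0 UMIs of further markers of other cell types, among them Pecam1, Cdh5, Krt14 and Tyrobp.

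Few cells made up the Pmch signal. At P15, 269 of 10667 mesenchymal cells had at least 2 Pmch UMIs, 31 cells held 50% of all its UMIs and the highest cell held 214. The numbers were 350 of 7879, 42 and 158 at P25, and 202 of 5061, 22 and 203 at 8 weeks. Of these carriers 82.5%, 78.3% and 59.9% were Ogn-gated and 15.6%, 18.6% and 39.6% were in no gate. Cells of no gate held Pmch at 7.64, 20.2 and 58.8 CPM. At 8 weeks their median depth was 5308 UMIs, and the part of depth in the Ogn ratio was not tested. Nts was also carried by 24.2% of Pmch carriers at P15, where 8.40% of mesenchymal cells carried it. Later it was carried by 42 of 350 and 18 of 202, where 23.7% and 26.5% of mesenchymal cells carried it. A single cell with 126 UMIs supplied 95.5% of the Pmch UMIs of the Ifitm5 gate at 8 weeks, and 35.2 CPM there became 1.61 CPM without it. Thinned to 3000 UMIs, 6.92%, 9.27% and 10.1% of Ogn-gated cells had a Pmch UMI (unthinned 17.5%, 22.2% and 18.7%), and 1.05%, 0.719% and 3.85% of Ptprc-positive cells did, the last being 1 of 26 cells; median depths in the Ogn gate were 18119, 18466 and 11750 UMIs. Parpbp stood at 5.03, 1.83 and 4.12 CPM in Pmch carriers and at 2.25, 1.79 and 1.36 CPM in cells without Pmch, far below the Pmch level of the carriers.

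**Figure D2:**
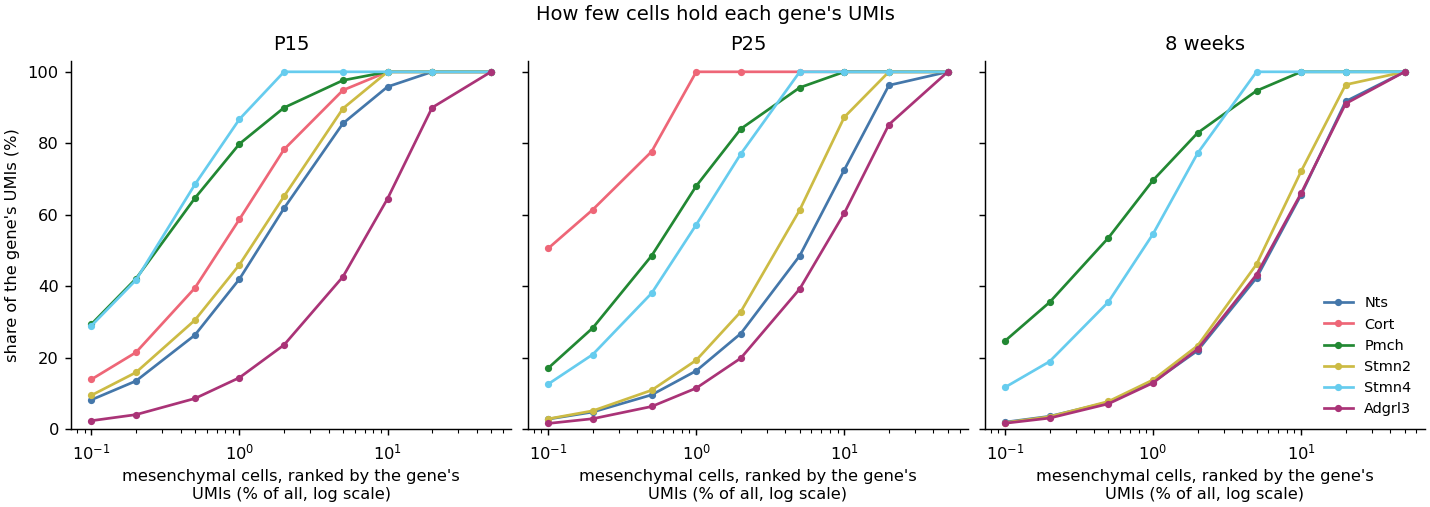
Share of each gene's UMIs (%) held by the cells richest in it, against the number of those cells as a percent of all mesenchymal cells (log scale), for each library; Cort at 8 weeks is left out because it had 9 UMIs. At P25 the richest 1% of cells held 68.1% of Pmch UMIs, 57.2% of Stmn4, 19.4% of Stmn2, 16.4% of Nts and 11.6% of Adgrl3.

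Stmn2 (chr3:8509360-8561606, plus strand) followed the Ibsp gate at all 3 ages and the Hand2 gate at the later ages only. In the Ibsp gate its level was 116 CPM in the P15 library (112 to 120), 176 CPM in the P25 library (172 to 179) and 468 CPM in the 8-week library (458 to 479), and outside it at 10.6, 12.2 and 39.9 CPM. The log2 ratios were 3.33, 3.74 and 3.52, a mean of 3.53 ± 0.21 (SD, n = 3 libraries). The Ifitm5 gate, of which 70.8% of cells were also Ibsp-gated at P15, held Stmn2 at 119 CPM then (113 to 125). Its later levels were 37.5 and 58.7 CPM, and its log2 ratios were 2.16, -1.09 and -1.85.
In the Hand2 gate the P15 level of Stmn2, 21.8 CPM (18.1 to 25.9), was below the 34.2 CPM of other mesenchymal cells, and the later levels, 283 CPM (276 to 291) and 609 CPM (593 to 625), were above 35.0 and 92.5 CPM. The Hand2 ratio was thus negative in the first library and positive in the others, at -0.63, 2.98 and 2.71 on the log2 scale, with a mean of 1.69 ± 2.01 (SD, n = 3 libraries).

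The level of Stmn2 also differed between ages among cells of a single gate combination. Cells of both the Ibsp and Hand2 gates and no other had 108 CPM (87 UMIs in 44 cells), 390 and 736 CPM in the order of age. Those of Hand2 alone had 18.3, 116 and 372 CPM, and those of Ogn and Hand2 had 2.71 CPM (9 UMIs in 150 cells), 67.0 and 286 CPM. Cells of both Ibsp and Ifitm5 ran the other way, at 164 CPM at P15 against 39.2 and 65.1 CPM later. In thinned cells of the Hand2 gate, 5.02% (2.77 to 8.28), 44.3% (41.5 to 47.3) and 66.9% (63.5 to 70.1) had a Stmn2 UMI, against 1.44%, 3.24% and 3.85% of Ptprc-positive cells, and unthinned shares were 9.57%, 63.0% and 82.7%. Which cells carried Stmn2 together with Nts changed likewise: 4.85% of Stmn2 carriers were also Nts carriers at P15, 83.3% at P25 and 88.2% at 8 weeks, where 8.40%, 23.7% and 26.5% of mesenchymal cells were Nts carriers. At P15, 17.7% of Stmn2 carriers were Cort carriers, against 5.18% of mesenchymal cells.

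Epithelial transcripts moved with Stmn2 at P15 and P25. The 7 epithelial markers summed to 2460 CPM in its carriers at P15 against 538 CPM in cells without it, to 1190 against 439 CPM at P25 and to 44.7 against 219 CPM at 8 weeks, with 6 of the 7 higher in carriers at P15 and at P25 and Epcam at 0 by the gate. The 6 endothelial markers summed to 163.5 CPM in carriers against 50.5 CPM at P15, to 10.3 against 12.4 CPM at P25 and to 23.4 against 9.55 CPM at 8 weeks, and were higher in carriers for 6, 3 and 6 of the 6. The part of either in the Stmn2 carrier results was not tested. At P15, 58 of 598 Stmn2 carriers (9.70%) had at least 10 UMIs of Krt5, Krt14 and Krt17 together, against 5.97% of all mesenchymal cells. At P25 the shares were 3.26% of carriers and 3.45% of mesenchymal cells, and at 8 weeks 0.194% and 1.07%. In mesenchymal cells below that keratin count Stmn2 stood at 32.8, 73.2 and 201 CPM, against 33.7, 73.6 and 201 CPM in all of them. Epcam-positive cells without Ptprc, which were not part of the gates, held 93.1, 57.0 and 8.56 CPM of Stmn2.

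**Figure D3:**
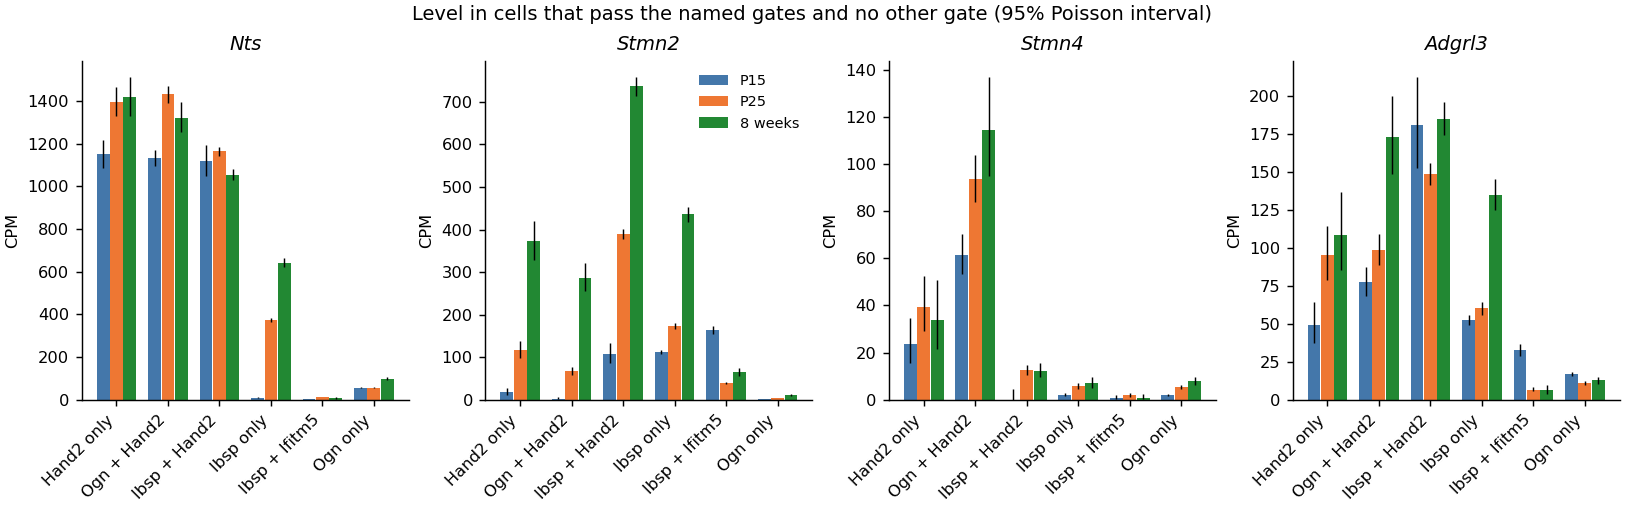
Level (CPM, linear axis from 0) of 4 genes in mesenchymal cells that passed exactly the gates named and no other, with a bar per library and a line for its 95% Poisson interval. Nts is at 1055 CPM or more in every combination that holds Hand2, while Stmn2 is between 108 and 736 CPM in cells of both Ibsp and Hand2 and Stmn4 is highest in cells of both Ogn and Hand2.

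Stmn4 (chr14:66344296-66361680, plus strand) was a gene of few UMIs with its highest level in Hand2-gated cells, which made up 45.6%, 55.1% and 53.3% of its carriers. Its level there was 40.8 CPM in the P15 library (35.7 to 46.3), 29.9 CPM in the P25 library (27.6 to 32.4) and 29.8 CPM in the 8-week library (26.4 to 33.5), and outside at 1.41, 4.17 and 7.25 CPM, with a mean log2 ratio of 2.87 ± 1.14 (SD, n = 3 libraries). Ogn-gated cells as a whole made up 64.6%, 51.9% and 52.3% of Stmn4 carriers and held the gene at 5.86, 13.6 and 20.3 CPM. Within the Hand2 gate Stmn4 was highest in cells that also passed the Ogn gate and no other, at 61.3, 93.5 and 114 CPM. Cells of the Ibsp, Ogn and Hand2 gates together had 19.0 CPM at P25 and 44.1 CPM at 8 weeks.
Cells of both Ibsp and Hand2 and no other gate were lower, at 0 UMIs in 44 cells, 12.4 and 12.3 CPM. The 2 stathmin genes were thus highest in different gate combinations of Hand2-gated cells, but were not kept to separate cells. Of Stmn4 carriers 3.80%, 27.6% and 41.1% also carried Stmn2, where 5.61%, 14.0% and 20.3% of mesenchymal cells did. Carriers of Stmn4 numbered 79, 185 and 107, and 64.6%, 73.0% and 72.0% of them also carried Nts. In thinned Hand2-gated cells 6.81%, 5.96% and 5.48% had a Stmn4 UMI (17.7%, 15.5% and 12.05% unthinned), and Ptprc-positive cells had it in 0.383% at P15 and in none of the 278 and 26 cells of the later libraries.

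Adgrl3 (chr5:81020138-81825133, plus strand) was spread more evenly at P15 and P25: 912, 1259 and 713 cells had at least 2 UMIs, the highest cell had 12, 14 and 11, and the richest 1% of cells held 14.5%, 11.6% and 13.0% of its UMIs, the lowest shares of the 6 genes in each library. At 8 weeks the richest 1% held nearly as little of Nts (13.2%) and Stmn2 (13.9%), and the richest 5% held 42.4% of Nts and 43.3% of Adgrl3. Adgrl3 was highest in the Hand2 gate, at 85.2 CPM (77.8 to 93.1), 130 CPM (125 to 135) and 179 CPM (170 to 188), followed by the Ibsp gate at 48.0, 64.9 and 132 CPM. The mean log2 ratio of the Hand2 gate was 2.17 ± 0.41 (SD, n = 3 libraries) and that of the Ibsp gate 1.62 ± 0.69.
The intervals of these gates did not overlap in any library, but the gates share many cells. Cells of the Hand2 gate and no other held Adgrl3 at 49.4, 95.5 and 109 CPM. Cells of the Ibsp gate and no other held it at 52.5, 60.1 and 135 CPM, so Hand2 was above Ibsp in such cells at P25 only. Ogn-gated cells had 22.1, 29.2 and 46.1 CPM and Ifitm5-gated cells 24.9, 7.45 and 6.93 CPM. Cells of both Ibsp and Hand2 and no other gate differed little between ages, at 181 CPM (146 UMIs in 44 cells), 148 CPM and 185 CPM. Those of both Ibsp and Ifitm5 and no other were at 32.5, 6.68 and 6.25 CPM. Thinned, 22.9%, 32.8% and 41.4% of Hand2-gated cells had an Adgrl3 UMI (63.5%, 80.7% and 76.3% unthinned), and Ptprc-positive cells 1.82%, 2.52% and 3.85%. At P25 and 8 weeks 69.1% and 86.4% of Adgrl3 carriers also carried Nts, and at P15 17.7% did.

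Over the 18 sums of 5 gates and of no gate in the 3 libraries, the pattern of Nts (log2 of CPM plus 10, 4341 genes compared) was close to those of Alx1 (Pearson r = 0.95), Hand2 (0.95), Tnn (0.91) and Rassf9 (0.90), and that of Stmn4 was close to Nts (0.90), Hand2 (0.90), Alx1 (0.89) and Rassf9 (0.89). Adgrl3 was closest to Ermp1 (0.95), Klhl5, Cttnbp2, Calca and Csrp2, and Calca, the calcitonin and CGRP gene, was itself at 36.4, 42.9 and 57.0 CPM in the Hand2 gate. Stmn2 was closest to Dennd5b (0.94), Psd3, Robo1, Smad7 and Reck. Pmch was close to Tspan3 (0.94), Pxk, Adamts5 and Tfpi, and Cort closest to Col2a1 (0.93), Sike1, Eln, Clta and Klhdc2. Among the members, r was 0.85 between Nts and Adgrl3, 0.73 between Stmn2 and Adgrl3, 0.54 between Nts and Stmn2 and -0.44 between Nts and Cort. These sums share libraries and in part cells, so the correlations are descriptions. Hand2 itself set a gate and so had to be high in it, which makes its r with genes highest in that gate no separate result.

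Apart from Tubb3, Gap43 and Uchl1, the general transcripts of neurons were near 0 in the carriers. Of 15 neuron markers, Tubb3, a tubulin that other cells also use, had the highest level in carriers of each member but Pmch: it was at 299, 260 and 267 CPM in Stmn2 carriers (101, 88.0 and 49.2 CPM in cells without Stmn2) and at 322 and 303 CPM in Cort carriers at P15 and P25 (97.2 and 114 CPM without). Without Tubb3, Gap43 and Uchl1, the other 12 markers, Snap25, Elavl3, Elavl4, Syt1, Nefl, Nefm, Rbfox3, Syp, Dcx, Prph, Isl1 and Scn9a, summed to between 1.95 and 5.82 CPM in carriers of any member, leaving aside Cort at P25 and 8 weeks, and to 3.79, 3.11 and 4.73 CPM in all mesenchymal cells.
In Stmn2 carriers Snap25 had 0 UMIs at P15 and at 8 weeks, and 6, 3 and 7 of the 12 had none. Tubb3 was lower in Pmch carriers, at 21.7, 30.1 and 10.7 CPM, than in cells without Pmch, at 126, 127 and 117 CPM. Uchl1 was at 32.8, 14.2 and 10.9 CPM in Stmn4 carriers, against 6.88, 3.985 and 3.798 CPM in all mesenchymal cells. Nts carriers held Uchl1 at 18.95, 7.876 and 3.896 CPM. Gap43 was at 17.99, 22.1 and 86.8 CPM in Stmn4 carriers, against 21.8, 7.27 and 12.3 CPM in all mesenchymal cells. In Stmn2 carriers Gap43 was lower than in all mesenchymal cells, at 10.8, 3.21 and 1.57 CPM.

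**Figure D4:**
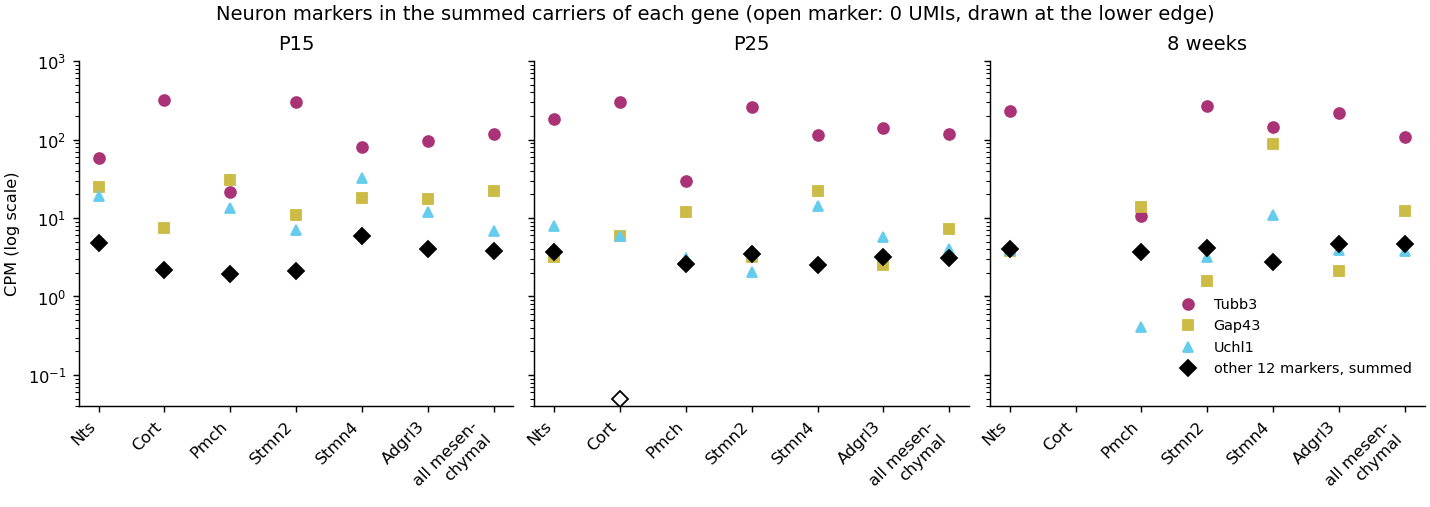
Level (CPM, log scale) of Tubb3, Gap43, Uchl1 and the sum of 12 other neuron markers in the carriers of each gene (at least 2 UMIs) and in all mesenchymal cells, for each library; sums of under 20 carriers (Cort at 8 weeks) are left out. The 12 markers stay below 6 CPM in every sum, and Tubb3 is highest in Cort and Stmn2 carriers.

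Most receptors of these peptides were hardly detected in the mesenchymal cells. Ntsr1 had 0 UMIs in all 3 libraries and Ntsr2 had 1, while Sort1, the sorting receptor that also binds neurotensin, was at 23.1, 16.9 and 16.1 CPM. Mchr1, the receptor of melanin-concentrating hormone, was at 0.0864, 0.0545 and 0.0910 CPM, and the 5 somatostatin receptors, which cortistatin also binds, were each at or below 1.02 CPM.
Ligands of latrophilin were present: Flrt3 at 102, 58.7 and 80.9 CPM, Flrt2 at 27.1, 26.8 and 41.0 CPM and Tenm3 at 51.4, 41.7 and 56.8 CPM. Of the processing enzymes, Cpe was at 336, 570 and 441 CPM, Pam at 232, 198 and 287 CPM and Furin at 60.5, 60.5 and 50.4 CPM, while the neuroendocrine convertases Pcsk1 and Pcsk2 and the granule proteins Chga, Chgb and Scg2 were each below 1 CPM in every library. Other peptide genes in these cells were Penk, the enkephalin precursor, at 55.9, 52.5 and 61.0 CPM, and Tac1, the precursor of substance P, at 108, 14.3 and 3.07 CPM. In contrast to Cort, Tac1 at P15 was highest in cells of no gate, at 206 CPM.

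To ask what else the carriers expressed, carriers and cells with 0 UMIs of the gene were summed per library and compared with edgeR's quasi-likelihood test. Calls needed a Benjamini-Hochberg adjusted p below 0.05 and a log2 difference beyond 1 either way. The 3 ages served as the replicates. The main fit had no library term, so it treated the sums of a library as unpaired, although their deviations correlated at 0.43 to 0.82. Its spread was that of levels between ages, so a gene not called is not thereby shown to be alike in carriers and other cells. Carriers had higher median depth than the other cells in all but 1 of the 17 sums compared, at 19017 against 13533 UMIs for Nts at P15, and the part of depth in these results was not tested. Genes were tested over the whole table of 13181 to 14312 genes, and the percentages give the called share of it.

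Pmch carriers had 12 genes higher (0.091% of the genes tested) and 31 lower (0.235%; 0.243% at the adjusted p alone, which was used for the lists). Insulin-like growth factor Igf1 was higher by 1.63 ± 0.16 (SE; adjusted p = 0.034), the Wnt inhibitor Sfrp1 by 1.56 ± 0.20 (0.043), the growth factor-binding protein Igfbp4 by 1.37 ± 0.17 (0.043) and the adaptor Grb14 by 1.63 ± 0.21 (0.043), on the log2 scale in edgeR's test, each in 3 of 3 libraries. Col8a2, Chst2 and Tfpi were also called higher, and so was Ogn, which the gates had used. Osteopontin Spp1, the matrix phosphoprotein Dmp1, the pyrophosphate enzyme Enpp1, the pyrophosphate transporter Ank, Bmp3, Tbx2 and Nkd1 were lower, Spp1 by 4.26 ± 0.46 (adjusted p = 0.035), and so was Ibsp. Of 5 genes of Ogn-rich precursor cells 4 were higher, with a list median of 1.37 against 0.01 over all genes tested. Of 5 genes of alpha cementoblasts 4 were lower, with a median of -3.07. The precursor, cementoblast and periapical lists were drawn up on these same samples, so their counts are no independent evidence. With the library as a block 144 genes were higher and 621 lower, DESeq2 called 88 and 357, and leaving out 1 library left 0 genes (without P15 or P25) or 1 (without 8 weeks). With carriers taken from 1 UMI, 0 genes were called and 1308 had an unadjusted p under 0.05.

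Stmn2 carriers had 13 genes higher (0.0975%) and 36 lower (0.27%; 0.105% and 0.278% at the adjusted p alone). The higher genes that met the naming rule were Ibsp (a gate gene), Wnt7b, a secreted Wnt ligand, by 2.32 ± 0.27 (SE; adjusted p = 0.047), the cytokine receptor chain Il2rg, Enpp1 by 1.68 ± 0.18 (0.047), Bmp3 by 1.54 ± 0.20, Gchfr and the transcription factor Tbx2. Lower were the vessel growth factor Angpt1, the myelin and membrane protein Pmp22, the microfibril protein Mfap4, the Wnt inhibitors Frzb and Sfrp1, Gas6, Igf1 by 2.15 ± 0.15 (adjusted p = 0.027) and the cartilage transcription factor Sox9.
Enpp1, Bmp3 and Tbx2 were thus higher in Stmn2 carriers and lower in Pmch carriers, and Igf1 and Sfrp1 the reverse. Of the 5 alpha cementoblast genes 2 were higher, with a median of 1.10 against 0.01 over all genes. Of 15 neuron markers 5 could be tested and 0 were called by edgeR (list median -0.33), with Tubb3 at 1.80 ± 0.27 (adjusted p = 0.055), and of 6 epithelial and 6 endothelial markers tested 0 were called, with medians of 1.46 and 1.64. The block gave 44 higher and 159 lower, DESeq2 170 and 540, carriers from 1 UMI gave 0 (1710 at an unadjusted p under 0.05), and without any 1 library 0 genes were called. The stricter mesenchymal set, in which 16.8% of the cells were kept at P15, gave 111 higher and 390 lower.

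Stmn4 carriers had 65 genes higher (0.49%) and 80 lower (0.603%); at the adjusted p alone 0.557% were higher and 0.648% lower, 1.21% in all. The transcription factor Creb5 was higher by 3.06 ± 0.46 (SE; adjusted p = 0.043), the adhesion receptor Adgrg6 by 2.69 ± 0.29 (0.016), the protease-like Prss35 by 2.39 ± 0.25 (0.015), the calcineurin regulator Rcan1 by 2.36 ± 0.16 (0.0096), the collagen-binding integrin Itga11 by 2.35 ± 0.31 (0.030), and Sema3c, Tagln and Wnt11 were higher too. Lower were Dmp1 by 4.69 ± 0.46 (adjusted p = 0.015), Enpp1, Thbs4, the enamel-matrix gene Ambn, the osteoclast inhibitor Tnfrsf11b and the chemokine Cxcl12.
The globin Hba-a1 was lower as well, with a log2 difference of -6.77 ± 0.94 (SE). Erythroid markers were highest in cells of no gate in every library, and the part of those cells in this difference was not tested. Of 14 genes of periapical cells 1, Csrp2, was called higher, with a list median of -0.12 against -0.02 over all genes. Of the receptors and partners of the members Flrt3 and Tenm2 were lower, of the other peptides Grp was lower, and Gpm6b was the glial marker that was lower. The block gave 199 higher and 511 lower, DESeq2 194 and 353, carriers from 1 UMI 10 and 4, and leaving out 1 library left 0 genes (without P15 or P25) or 2 (without 8 weeks).

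Cort carriers could be compared at P15 and P25 only, where they numbered 553 and 20, and had 42 genes higher (0.293%) and 24 lower (0.168%). Higher were Rapsn, a scaffold of acetylcholine receptors, by 5.09 ± 0.33 (SE; adjusted p = 0.0076), the engulfment receptor Megf10 by 4.33 ± 0.31 (0.0076), the serine protease inhibitor Serpini1 by 3.62 ± 0.27 (0.0076), Enpp1 by 3.31 ± 0.40 (0.044), Sfrp4, Fstl4, Tnfrsf11b and the osteocalcin-family gene Bglap3. Lower were the S-phase histones Hist1h1b, Hist1h2ap and Hist1h2ae, the topoisomerase Top2a by 3.52 ± 0.46 (adjusted p = 0.038), Aspn, Cxcl12, Plxdc2 and Igf1.
From the lists, Tubb3 was the neuron marker called (1 of 10 tested, higher), Unc5b the receptor gene (1 of 14, higher), Hmgb2 and Top2a the cycling genes (2 of 4, lower) and Cxcl12, Igf1 and Igfbp4 the Ogn precursor genes (3 of 5, lower). With the library as a block 533 genes were higher and 1431 lower, DESeq2 called 133 and 157, edgeR with RLE size factors 52 and 68, edgeR with no low-count filter 61 and 78, and carriers from 1 UMI gave 0 (1023 at an unadjusted p under 0.05). The fit had 2 libraries, so none could be left out.

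Nts carriers had 1 gene higher (0.00743%) and 1 lower (0.00743%), neither of which met the naming rule. Ntrk2, named after its values were seen, is a neurotrophin receptor and was at 4.15, 4.97 and 3.98 CPM in carriers and at 18.7, 25.4 and 23.6 CPM without, lower by 2.36 ± 0.18 (SE; adjusted p = 0.047).
Alx1 and Hand2 differed by 6.92 ± 0.68 (adjusted p = 0.14) and 6.02 ± 0.79 (0.16) and did not pass, although the carriers were higher in 3 of 3 libraries. Both belong to the list of 14 genes of periapical cells, of which 0 were called. The median of that list was -1.55 against 0.02 over all genes, so Alx1 and Hand2 do not stand for the list. For Calca the difference was 2.33 ± 0.41 (adjusted p = 0.19). The block gave 3 higher and 24 lower, DESeq2 93 and 404, and leaving out the P25 or the 8-week library left 0 genes.

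Adgrl3 carriers had 0 genes called by edgeR, with 1752 at an unadjusted p under 0.05, 428 called by DESeq2 (143 higher and 285 lower) and 3 with the library as a block. Wnt5a, a secreted Wnt ligand, stood at 404, 604 and 437 CPM in carriers and at 137, 194 and 196 CPM in cells without Adgrl3, a difference of 1.46 ± 0.23 (SE; adjusted p = 0.23). Pmch, a member and so given as values only, stood at 12.03, 10.5 and 6.07 CPM in Adgrl3 carriers and at 35.0, 68.2 and 82.1 CPM without. With carriers taken from 5 UMIs, 74 genes were higher and 143 lower.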

How the data were processed

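The authors deposited UMI counts per gene and cell from Cell Ranger (per the file headers version 6.0.1 in the P25 library and 6.1.2 in the others; the submitters' processing notes name 6.1.2 and mm10), unnormalized; the annotation is not given in the sources used here. The P25 library listed 32293 genes and the others 22056, and the 21446 shared held 95.2% to 99.8% of UMIs. The members, gates, gene lists and tests were chosen with earlier results of these data known.

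CPM were the summed UMIs of a class per 1000000 UMIs of the shared genes, with exact Poisson intervals; shares used Clopper-Pearson intervals at 95%, with cells under 3000 UMIs left out of thinned shares. Gate ratios used CPM plus 1. All deposited cells were kept and doublets were not removed; leaving out the 6% with highest Scrublet scores was an alternative. Carriers (at least 2 UMIs) and non-carriers (0) were summed per library with at least 20 cells and fitted with edgeR 4.0.16 (TMM, filterByExpr, quasi-likelihood); values in carriers beside its fold changes are on the TMM scale. Alternatives were DESeq2 1.42.0, RLE factors, no low-count filter, the library as a block, other carrier and gate thresholds, thinned or exclusive gates, a filter on cells, stricter mesenchymal cells and each library left out. Scripts were tested on simulated data. Named genes were the 8 largest changes in each direction past both thresholds, the same way in every library, with at least 50 CPM and an informative symbol; for likeness, the 5 highest correlations. Some genes that met these rules are not reported here. Same-library sums share the pooled mice and were not paired in the main fit: their deviations correlated at 0.43 to 0.82. The p-values measure only the spread between these 3 libraries. Positions came from GENCODE vM21 on GRCm38.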

Additional observations from a re-analysis of the deposited data

Results flagged for a closer look

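Stmn2 in the Hand2 gate moved in opposite directions at different ages: the log2 ratio of gated to other mesenchymal cells was -0.63 at P15 against 2.98 at P25 and 2.71 at 8 weeks. Nts in the Ibsp gate did the same, at -0.90, 1.86 and 2.10. With a single library per age, neither difference between ages was tested.

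Outside the mesenchymal cells, Epcam-positive cells held some members above the level of Ptprc-positive cells. Stmn2 was at 93.1 CPM at P15 and 57.0 CPM at P25, Pmch at 11.4 and 8.76 CPM, and Stmn4 at 1.33 CPM at P25, where the Ptprc-positive cells held 13.1 and 16.7 CPM of Stmn2, 5.96 and 1.497 CPM of Pmch and 0 UMIs of Stmn4. The groups were single libraries, so no search for outlying samples was possible.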

How the results depend on the processing

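Alternatives were run for the gate with the highest mean level of each gene, which is Hand2 for Nts, Stmn2, Stmn4 and Adgrl3, Ifitm5 for Cort and Rgs5 for Pmch. The Ogn ratio of Pmch and the Ibsp ratios of Cort and Stmn2 had none. Of these 66 alternative ratios, 61 kept the direction and stayed within 1 SD, among them those without the cell with most UMIs of the gene, an alternative chosen after seeing the data. The 61 also include every mean with a library left out. With 3 libraries such a mean cannot move by 1 SD of those same libraries, so its place in the count says nothing about stability. The Rgs5 ratio of Pmch reversed to -1.01 with doubled thresholds, -4.55 with exclusive gates and -0.48 with the stricter mesenchymal set, and exclusive gates moved the Ifitm5 ratio of Cort to 0.44 and the Hand2 ratio of Adgrl3 to 1.44. Over libraries left out, the log2 ratios of these gates ranged from 3.25 to 4.45 (Nts), 1.81 to 2.78 (Cort), 0.68 to 1.98 (Pmch), 1.04 to 2.84 (Stmn2), 2.24 to 3.35 (Stmn4) and 2.02 to 2.40 (Adgrl3). Genes called in carriers depended on the fit. DESeq2 called 497 for Nts, 290 for Cort, 445 for Pmch, 710 for Stmn2, 547 for Stmn4 and 428 for Adgrl3, against 2, 66, 43, 49, 145 and 0; the replicate block, the library being the pair, called 27, 1964, 765, 203, 710 and 3. Carriers from 1 UMI gave 0, but 14 for Stmn4; from 5 UMIs 8 (Nts), 69 (Pmch), 97 (Stmn2), 239 (Stmn4) and 217 (Adgrl3). The stricter set gave 113 (Pmch), 501 (Stmn2), 47 (Stmn4) and 6 (Adgrl3), and the Scrublet cut 130 (Pmch), 225 (Stmn2) and 274 (Stmn4). For Stmn4 the stricter set held 8 carriers at P15, under the 20 needed, so that fit used P25 and 8 weeks only. For Cort, RLE factors gave 120 and no low-count filter 139; the latter gave 93 for Stmn2. Leaving out a library gave 0 to 2 (Nts), 0 to 1 (Pmch), 0 to 0 (Stmn2), 0 to 2 (Stmn4) and 0 to 0 (Adgrl3). For Cort, carriers from 5 UMIs, the stricter set, the Scrublet cut and left-out libraries could not be fitted, with under 20 carriers or no residual degrees of freedom. The cause of these changes was not tested. Results for Stmn4 rested on few counts, at 438 to 1050 UMIs a library.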

Other observations

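Tubb3 was unevenly spread over the gates: it stood at 433, 288 and 202 CPM in the Ifitm5 gate and at 197, 238 and 239 CPM in the Ibsp gate, against 26.9, 35.2 and 38.9 CPM in the Ogn gate. Tac1 at P15 was at 89.9 CPM in the Ifitm5 gate and 23.0 CPM in the Ogn gate, and had 0 UMIs in the Ifitm5 and Hand2 gates at 8 weeks. Penk lay between 32.5 and 137 CPM in every gate and library.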
